A study of Saccharomyces cerevisiae with 25 samples.

Results

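The 10 genes described here are ZAP1, ZRT1, ZRT2, ZRT3, ZRC1, COT1, ADH4, IZH1, IZH2 and ZPS1, the zinc regulon and zinc transport genes of budding yeast. They were taken by name from the 6650 named genes of the deposited table, and all 10 were found. The 25 RNA-seq libraries came from 1 time course of the haploid laboratory strain BY4741 that carried a YFP reporter under the PHO84 promoter and overexpressed the phosphate transporter gene PHO90. Every library carried both changes, so nothing below compares the overexpression with a normal strain, and the sources used here do not name the promoter that drove it. Cells left a high phosphate medium at 0 min, were washed, and were followed without phosphate from 15 to 360 min at intervals of 15 min, with 1 library per time point. The sources used here do not give the zinc content of the media.

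Zap1 is a zinc-sensing transcription factor that binds a short palindromic motif, the zinc-responsive element, and switches on its targets when cellular zinc is low, its own gene among them. The high-affinity transporter Zrt1 and the low-affinity transporter Zrt2 take zinc up at the cell surface. Zrt3 releases zinc from the vacuole, and Zrc1 and Cot1 carry zinc into it for storage. Adh4 is an alcohol dehydrogenase, Izh1 and Izh2 are membrane proteins that affect zinc balance (IZH2 is also known as PHO36), and Zps1 is a cell surface protein made under zinc shortage.

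Of the 10 genes, 8 held at least 1 match to the Zap1 motif (ACCTT, any base, AAGGT), with at most 1 mismatch, in the 800 bases before their start codon, against 166 of 6002 protein-coding genes (2.77%). The 10 were listed as zinc genes and the motif is that of Zap1, so this share is no independent test. Of 16 other known Zap1 targets, described below, 4 (25.0%) held such a match. The motif reads the same on both strands. Only ZRT1 of the 10 held an exact match, as did 13 of the 6002 (0.22%). COT1 and IZH2 held none. The core motif of Pho4, the phosphate starvation factor, is CACGTG. It occurred upstream of ZAP1, ZRT3 and IZH1, that is 3 of 10, and of 540 of the 6002 (9.0%). For ZAP1 it was not within the 300 bases before the start codon. The divergent gene LOG1 begins 283 bases from ZAP1, so the ZAP1 occurrence lies past the start of LOG1. A window of 800 bases can reach into the neighbouring gene, and a match is a run of letters, not a measured binding site. The 11 matches are shown because they are the sequence feature most of these genes share. They are from the RefSeq R64 genome, 5′ to 3′ on the strand of the gene, with the motif in capitals and 10 bases on each side.
ZAP1, minus strand, chrX:333207-333217: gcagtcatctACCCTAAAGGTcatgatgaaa
ZRT1, plus strand, chrVII:20659-20669: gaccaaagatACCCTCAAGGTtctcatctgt
ZRT1, plus strand, chrVII:20774-20784: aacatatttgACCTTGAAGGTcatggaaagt
ZRT2, minus strand, chrXII:404363-404373: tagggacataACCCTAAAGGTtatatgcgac
ZRT2, minus strand, chrXII:404314-404324: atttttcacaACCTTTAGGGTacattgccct
ZRT3, plus strand, chrXI:118638-118648: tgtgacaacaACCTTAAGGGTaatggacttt
ZRC1, minus strand, chrXIII:756330-756340: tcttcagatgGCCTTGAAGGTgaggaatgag
ADH4, plus strand, chrVII:14641-14651: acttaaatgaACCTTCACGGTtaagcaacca
IZH1, plus strand, chrIV:1434507-1434517: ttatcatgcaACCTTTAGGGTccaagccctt
ZPS1, plus strand, chrXV:34329-34339: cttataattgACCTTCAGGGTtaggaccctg
ZPS1, plus strand, chrXV:34344-34354: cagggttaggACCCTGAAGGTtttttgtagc

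The first base of the match lay 144 bases before the start codon for ZAP1, the nearest of the 11, and 518 bases before it for ADH4, the farthest. The exact match of ZRT1 lay 204 bases before its start codon. ZRT1 and ADH4 are neighbours on the same strand of chromosome VII, with a noncoding transcript on the other strand between them. The ADH4 match lies between ADH4 and the divergent gene MNT2, a mannosyltransferase gene that is also a Zap1 target, and counts for both. IZH2 has no match and lies back to back with PHO80, the gene of the cyclin that holds the phosphate pathway off, with 884 bases between them. No annotated gene overlaps any of the 10 within its annotated bounds, and transcripts that run past those bounds were not examined. The nearest neighbour is TPO5, on the other strand, whose bounds end 75 bases from those of ZRT3.

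Levels are given in RPM (reads per 1000000 reads in listed genes), and differences in log2 RPM. Read numbers were inferred from the RPM values by taking the lowest value of each library as 15 reads. On that basis, reads in listed genes ranged from 450744 to 2271193 per library with a median of 1005706. A gene with fewer than 15 reads in a library has no value there, and this floor had a median of 11.0 RPM early, 14.8 RPM middle and 24.5 RPM late. Successive time points were grouped as an early (15 to 120 min), a middle (135 to 240 min) and a late (255 to 360 min) window of 8 libraries each. The windows stand in for replicates. Since all libraries come from 1 course, a p-value between windows only sets their difference against the spread of time points within windows. For a curve fitted over time it is the spread around that curve. The spread within windows holds any trend over time there and is not one between replicates. A share of reads cannot tell less of a transcript per cell from fewer cells that hold it. Ribosomal protein genes took a share of the reads of 34.3% ± 1.98 early, 16.7% ± 8.03 middle and 9.45% ± 2.11 late (SD, n = 8 each), and the median of all 4343 genes tested was 0.45 higher late than early. Differences are therefore also given with each library centred on its median, and the part of the ribosomal protein share in them was not tested beyond this and a scaling to reads outside those genes.

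Of the 10 genes, 8 had a value in at least 20 of the 24 libraries without phosphate and were tested. Late against early, 1 of 8 was called higher (ZAP1) and 0 lower, where a call needs an adjusted p under 0.05 and a log2 difference of at least 1. Over all genes tested 13.8% were called higher and 3.41% lower, so the share among the zinc genes is near the background. At an adjusted p under 0.05 and any size, limma found 5 of 8 higher and 1 lower, against 63.8% and 7.32% of all genes. Listed late values lay wholly above listed early ones in 3 of 8 and wholly below in 0, against 28.2% and 4.03% of all genes. The median difference of the 8 was 0.66, against 0.45 over all genes tested, and with libraries centred it was 0.20 against -0.01. ZRT1 and ZPS1 had values in 16 and 10 of the 24 libraries and were not tested.

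**Figure D1:**
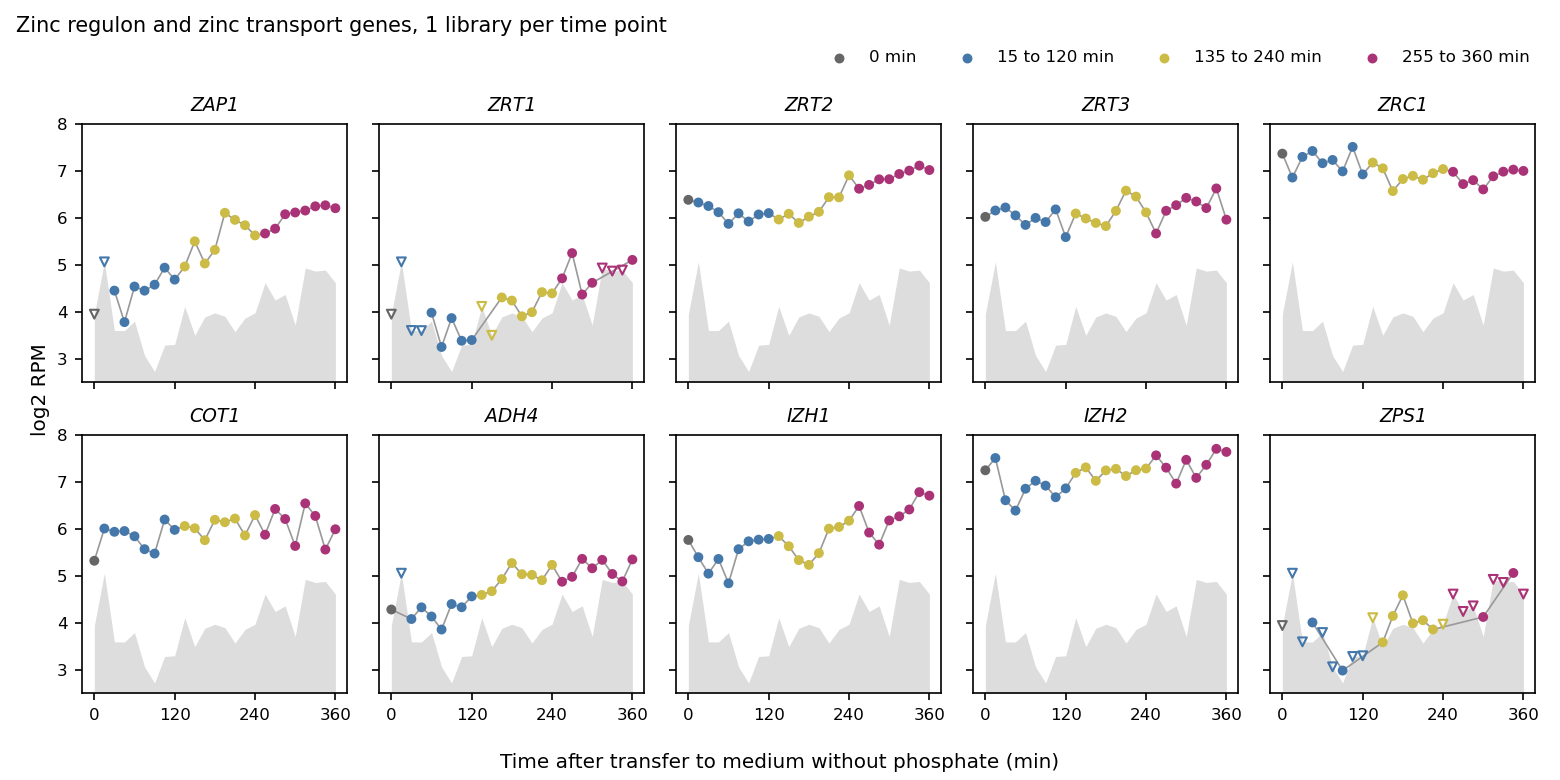
Level (log2 RPM) of the 10 genes against time after transfer (min), 1 point per library, coloured by window. The grey area lies under the floor of 15 reads, and open triangles at its edge mark libraries without a value. ZAP1 stands at 6.20 at 360 min, against 4.45 at 30 min, ZRC1 has its highest value at 105 min, and ZRT1 and ZPS1 stay close to the floor.

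ZAP1, the regulator's own gene (YJL056C, chromosome X, 330431 to 333073, minus strand), had the largest difference of the 8 genes tested. It had no value at 0 or 15 min. Its lowest, median and highest levels were 13.7, 23.1 and 30.6 RPM in the 7 early libraries with a value, 31.1, 47.1 and 68.6 RPM in the middle libraries, and 50.6, 69.9 and 76.7 RPM in the late ones. All 8 late and all 8 middle values lay above the highest early one. Late, the level averaged 6.06 ± 0.22 (log2 RPM, SD, n = 8), against 4.48 ± 0.35 early (n = 7). The difference was 1.57 (SE 0.17, limma adjusted p = 7.72e-09), or 2.97-fold, with 96.4% of genes tested below it. Centred on library medians it was 1.10 and still called. Most of it was present by the middle window: middle against early the difference was 1.05 (limma adjusted p = 1.81e-05). That call was lost with libraries centred (0.78) and without the 45, 195 or 210 min library (0.94, 0.97 and 0.99).

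The 300 bases before the ZAP1 start codon, shown because this is the gene called in the window comparisons, are on chrX:333074-333373, minus strand, and hold the motif match in capitals. The annotated bounds of the divergent gene LOG1 begin 283 bases from ZAP1, so the first printed bases lie within LOG1.
ZAP1 promoter: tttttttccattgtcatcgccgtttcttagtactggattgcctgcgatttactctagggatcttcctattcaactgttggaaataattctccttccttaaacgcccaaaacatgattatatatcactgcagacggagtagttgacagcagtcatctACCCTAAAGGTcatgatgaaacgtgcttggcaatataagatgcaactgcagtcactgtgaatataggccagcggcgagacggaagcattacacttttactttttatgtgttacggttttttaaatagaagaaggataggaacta

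With libraries centred, the genes whose course was most like that of ZAP1 over 23 libraries were KCS1 (Pearson r = 0.91), an inositol pyrophosphate kinase gene, COX5A (r = 0.91), a cytochrome c oxidase subunit gene, and AGP1 (r = 0.90), an amino acid permease gene. Each of these was highest in the late and lowest in the early window, and points of 1 course share the trend over time.

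ZRT1, the high-affinity uptake transporter gene (YGL255W, chromosome VII, 20978 to 22108), stayed at low read numbers throughout, with 15 to 33 reads where it had a value. It was listed in 5 early, 6 middle and 5 late libraries and not at 0 min. Its lowest, median and highest listed levels were 9.49, 10.5 and 15.7 RPM early, 14.9, 19.3 and 21.3 RPM middle, and 20.6, 26.1 and 37.9 RPM late. Listed values can be no lower than the floor, which was higher late, so the pooled reads of each window were bounded by giving each library without a value 0 or 14 reads. This put ZRT1 at 8.89 to 12.7 RPM early, 13.6 to 17.0 RPM middle and 20.3 to 28.1 RPM late. On the deposited scale the late pool was thus 1.61 to 3.16 times the early one, whatever the missing values were. The pools were not centred, and the median of all genes tested was itself 0.45 (log2) higher late than early. Whether ZRT1 stood higher late beyond that shift was not tested. With exact Poisson 95% limits added (counting error only) the late pool was at least 16.7 RPM and the early one at most 14.9 RPM, and no test between windows was made on these pools. Per length, the 16 listed ZRT1 values averaged 17.4 ± 7.10 RPM per kb of coding sequence (SD), the lowest of the 10 genes. ZRT1 stood below ZRT2 in every library with both: the log2 ratio of ZRT1 to ZRT2 reads was -1.98 ± 0.37 late (n = 5), against -2.43 ± 0.43 early (n = 5), a difference of 0.45 (exact permutation test, two-sided, adjusted p = 0.208; the smallest unadjusted p this design allows is 0.00794).

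The stretch of the ZRT1 promoter that holds both matches, shown because 1 of them is the only exact match among the 10 genes, is on chrVII:20648-20797, plus strand, from 330 to 181 bases before the start codon.
ZRT1 promoter: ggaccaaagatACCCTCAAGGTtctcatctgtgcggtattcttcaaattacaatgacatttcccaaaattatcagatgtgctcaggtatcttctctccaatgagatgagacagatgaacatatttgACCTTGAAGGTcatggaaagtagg

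ZRT2, the low-affinity uptake transporter gene (YLR130C, chromosome XII, 402794 to 404062), stayed within 58.3 to 79.9 RPM from 15 to 195 min and stood higher late. Its lowest, median and highest levels were 58.3, 68.2 and 79.9 RPM early, 59.1, 68.6 and 119 RPM middle, and 97.9, 117 and 138 RPM late. All 8 late values lay above all 8 early values, and 3 middle ones did too. At 0 min it stood at 83.1 RPM (81 reads, exact Poisson 95% interval 66.0 to 103 RPM), above all 8 early values. Late against early the difference was 0.78 (SE 0.12, limma adjusted p = 1.52e-06), below the size limit of 1 and not called, and with libraries centred it was 0.32. Most of it lay between the middle and late windows, at 0.64 (limma adjusted p = 0.000679), against 0.14 from early to middle (limma adjusted p = 0.313; 0.043 to 0.19 without single libraries). Whether the timing of ZAP1 and ZRT2 differs was not tested.

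The 3 vacuolar genes had the smallest differences of the 8 on the deposited scale, though not with libraries centred. ZRC1, the main vacuolar zinc importer gene (YMR243C, chromosome XIII, 754838 to 756166), was the only one of the 8 with a lower mean late than early on the deposited scale. Its lowest, median and highest levels were 115, 146 and 181 RPM early, 94.5, 121 and 144 RPM middle, and 96.9, 122 and 130 RPM late. The windows overlapped, with 3 late values under the lowest early one, and the 0 min value was 164 RPM (160 reads, 140 to 192 RPM). Late against early the difference was -0.30 (SE 0.10, limma adjusted p = 0.0106), and -0.76 with libraries centred (limma adjusted p = 6.77e-07), neither past the size limit; 7.23% of genes tested lay below it.

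COT1, the second vacuolar importer gene, known for cobalt as well as zinc (YOR316C, chromosome XV, 906236 to 907555), ranged over 44.5 to 73.5 RPM early, 54.2 to 78.5 RPM middle and 47.2 to 93.2 RPM late, with medians of 61.7, 68.7 and 68.8 RPM in that order, and 4 late values lay above the highest early one. Its 0 min value of 40.0 RPM (39 reads, 28.4 to 54.7 RPM) was below all 8 early values, and the early median was 0.62 higher, short of 2-fold. Of all genes 2.06% were past 2-fold higher in that step and 0.39% past 2-fold lower, and none of the 7 zinc genes with a 0 min value was. ZRT3, the vacuolar exporter gene (YKL175W, chromosome XI, 118793 to 120304), ranged over 48.0 to 74.2 RPM early, 56.4 to 95.1 RPM middle and 50.6 to 98.3 RPM late, with medians of 64.8, 68.5 and 75.2 RPM, and its 0 min value was 64.6 RPM. Late against early, COT1 differed by 0.19 (95% interval -0.08 to 0.47) and ZRT3 by 0.21 (-0.05 to 0.48), and neither passed limma's test (adjusted p = 0.195 and 0.139). Both turned negative with libraries centred (-0.27 and -0.25) or scaled to reads outside ribosomal protein genes (-0.27 and -0.25).

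**Figure D2:**
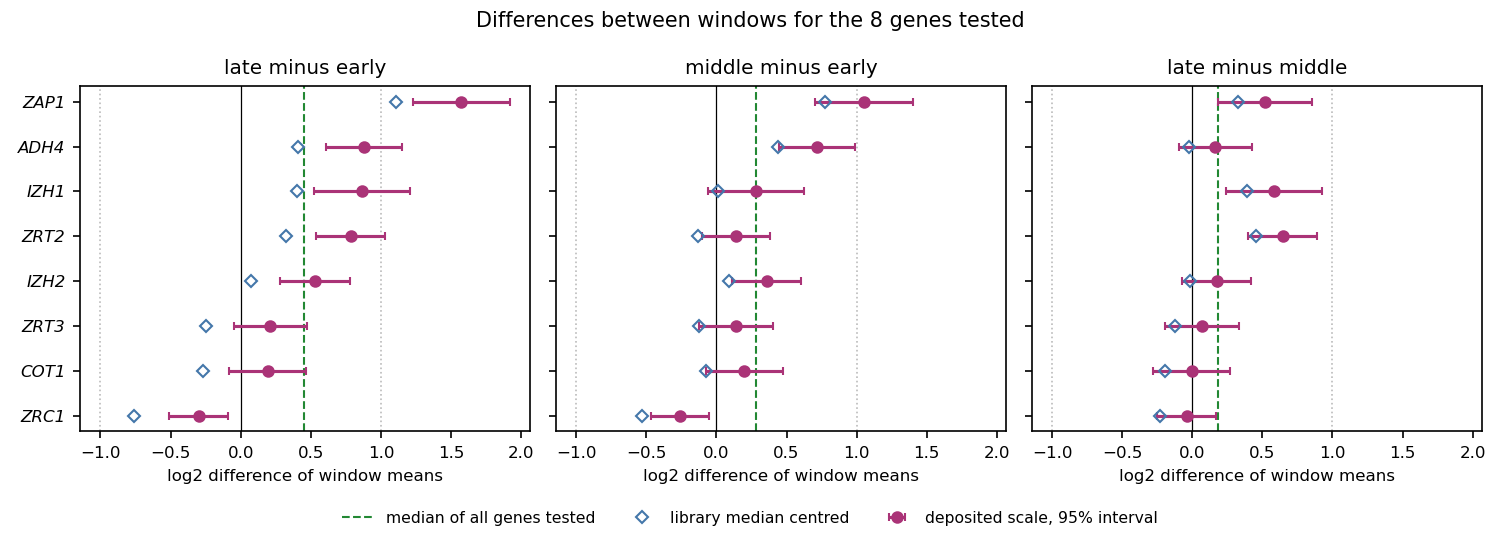
Differences of window means (log2) for the 8 genes tested, with limma's 95% interval (filled circles), beside the same with libraries centred on their median (open diamonds). Dashed lines mark the median of all genes tested and dotted lines the size limit of 1; ZAP1 late minus early (1.57) is the only circle past it whose diamond is past it too.

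Ratios within a library do not depend on how libraries are scaled, and the balance of the vacuolar genes was read from them. Across 5 pairs and 3 window comparisons, 15 exact two-sided permutation tests were made and 5 had an adjusted p under 0.05, all of them at 0.0434. ZRC1 to COT1 was 0.80 ± 0.40 late, against 1.30 ± 0.28 early (log2, SD, n = 8 each), a difference of -0.49 (exact permutation test, unadjusted p = 0.0145). It was already 0.84 ± 0.21 in the middle window (-0.46 against early, exact unadjusted p = 0.00342). ZRT3 to ZRC1 was -0.67 ± 0.36 late, against -1.18 ± 0.22 early, a difference of 0.51 (exact permutation test, unadjusted p = 0.00699). It was -0.78 ± 0.30 in the middle window (0.40 against early, exact unadjusted p = 0.00886). The exporter's reads thus stood higher relative to the main importer's in both later windows than early. Both ratios hold the same ZRC1 values, so their calls are not independent of each other. Late against early ZRC1 itself differed by -0.30, while ZRT3 and COT1 did not pass limma's test (adjusted p = 0.139 and 0.195). These calls lie just under the threshold: leaving out single libraries left 0 to 5 of the 15, and it was 0 without the 45, 60, 75, 105, 165, 195, 300 or 315 min library. Late against early, the difference stayed between -0.59 and -0.42 for ZRC1 to COT1 and between 0.44 and 0.60 for ZRT3 to ZRC1 when 1 library was left out.

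**Figure D3:**
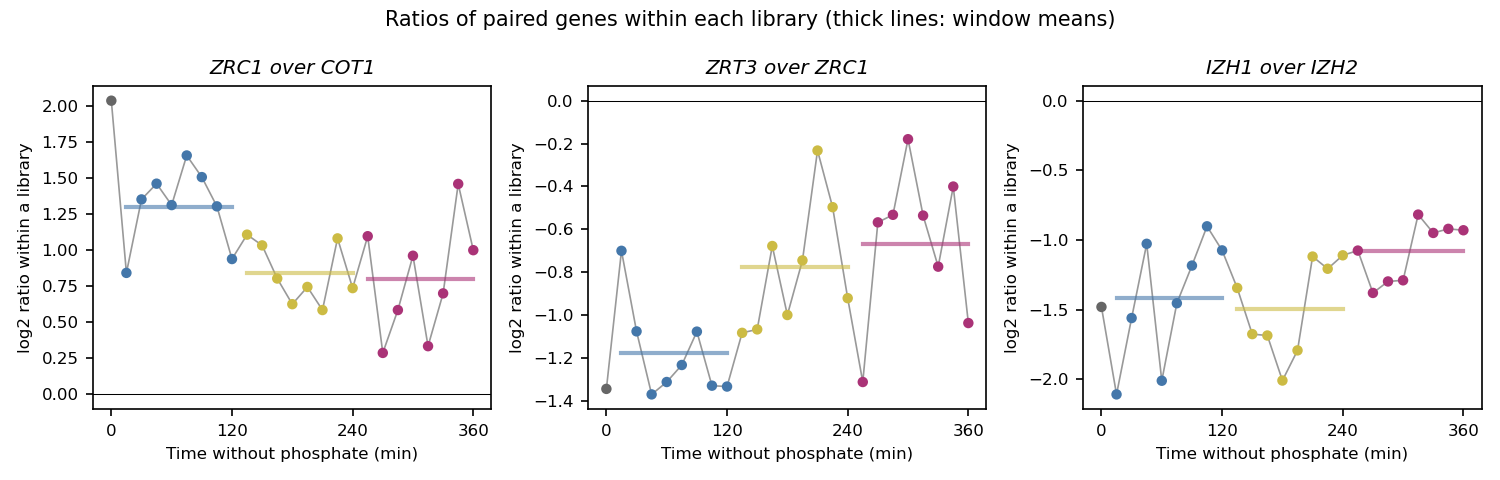
Log2 ratio of reads of paired genes within each library against time (min), with window means as thick lines. ZRC1 over COT1 averages 0.80 late and 1.30 early, ZRT3 over ZRC1 -0.67 late and -1.18 early, and IZH1 over IZH2 -1.08 late and -1.42 early; points of neighbouring windows overlap in all 3 panels.

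ADH4, the zinc-regulated alcohol dehydrogenase gene beside ZRT1 (YGL256W, chromosome VII, 15159 to 16307), had 15 to 48 reads in the libraries without phosphate that listed it. At the lowest, median and highest it stood at 14.5, 20.1 and 23.6 RPM in 7 early libraries, 24.2, 31.5 and 38.7 RPM in the middle ones and 29.4, 34.4 and 41.1 RPM in the late ones. Every middle and late value lay above each of the 7 listed early values, and the 0 min level was 19.5 RPM (19 reads, 11.7 to 30.4 RPM). The 15 min library had no value, and its floor of 33.3 RPM was above the lowest middle and late values. Late against early the difference was 0.88 (SE 0.13, limma adjusted p = 1.52e-06) and 0.41 with libraries centred, not called. Most of this lay in the first step, 0.72 from early to middle and 0.16 from middle to late. Of all 28 pairs among the 8 tested genes ADH4 and ZAP1 had the highest correlation of centred values (Pearson r = 0.61, n = 23 libraries). The lowest was that of ZAP1 and ZRC1 (r = -0.77), the median of the 28 was -0.01 and 13 were above 0. The genes most like ADH4 were AVT6 (r = 0.84), a vacuolar amino acid exporter gene, SUM1 (r = 0.84), a repressor gene, and ERV2 (r = 0.82), a sulfhydryl oxidase gene.

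IZH1 (YDR492W, chromosome IV, 1434924 to 1435874) was lowest at 60 min and highest at 345 min. Its lowest, median and highest levels were 28.7, 44.8 and 55.2 RPM early, 37.6, 53.6 and 72.2 RPM middle, and 50.7, 81.1 and 110 RPM late. Of the 8 late values 7 lay above the highest early one, and the 0 min value was 54.4 RPM (53 reads, 40.7 to 71.1 RPM). Late against early it differed by 0.86 (SE 0.17, limma adjusted p = 4.98e-05; 0.40 centred), under the size limit. Against a smooth curve of time its fitted range was 1.52 (limma F test, adjusted p = 3.05e-06) and 1.07 with libraries centred, called in both. On that test ZAP1 (2.29), ADH4 (1.27) and ZRT2 (1.14) were also called, so 4 of 8 had a course over time with a fitted range of at least 1, against 32.2% of all genes tested. With libraries centred the ranges of ADH4 and ZRT2 were 0.79 and 0.73 and fell short.

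IZH2 (YOL002C, chromosome XV, 323411 to 324364) had the highest level per length of the 10, at 153 ± 33.4 RPM per kb over the 24 libraries (SD). Low, median and high levels were 83.7, 116 and 182 RPM early, 130, 152 and 159 RPM middle, and 125, 171 and 208 RPM late, and the early high was the 15 min library. At 0 min it stood at 152 RPM, above 7 of the 8 early values. The difference late against early was 0.53 (SE 0.12, limma adjusted p = 0.000321), close to the median gene, and 0.07 with libraries centred. IZH1 to IZH2 was -1.08 ± 0.21 late, against -1.49 ± 0.34 in the middle window (log2, SD, n = 8 each), the fifth called ratio (0.41, exact permutation test, unadjusted p = 0.0132). It was not called without the 15, 345 and 360 min libraries (0.36, exact permutation test, adjusted p = 0.142).

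ZPS1 (YOL154W, chromosome XV, 34658 to 35407) was at the floor. It was listed in 2 early, 6 middle and 2 late libraries, with 15 to 23 reads, at 7.93 to 16.1 RPM early, 12.02 to 24.04 RPM middle and 17.5 to 33.4 RPM late. Bounded as for ZRT1, its pooled level was 3.41 to 11.0 RPM early, 12.9 to 16.3 RPM middle and 6.84 to 22.4 RPM late. The middle pool was 1.18 to 4.76 times the early one over these fillings. With exact Poisson 95% limits added the middle pool was at least 10.6 RPM and the early one at most 13.1 RPM, so neither this step nor late against early can be ordered at this depth.

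Per length, the order of the 10 over the libraries without phosphate was IZH2, ZRC1 (96.2), ZRT2 (69.1), IZH1 (63.0), COT1 (49.4), ZRT3 (46.3), ADH4 (25.3), ZPS1 (23.4), ZAP1 (17.8) and ZRT1 (17.4 RPM per kb). ZRT2, IZH1, COT1 and ZRT3 differed from their next neighbour among these 4 by less than the larger of the 2 SDs, and so did ADH4, ZPS1, ZAP1 and ZRT1. The means of ZRT1 and ZPS1 leave out libraries under the floor and are therefore too high by an amount not known.

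Middle against early, 1 of 8 was called higher (ZAP1) and 0 lower, where 4.51% of all genes were called higher and 2.81% lower. Late against middle, limma called 0 of 8 (3 higher at an unadjusted p under 0.05: ZRT2, IZH1 and ZAP1, at 0.64, 0.58 and 0.52). At an unadjusted p under 0.05, 32.9% of all genes were higher and 6.33% lower. An exact permutation test also found an unadjusted p under 0.05 for 3 of the 8 and, with the same size limit, called 0. Over all genes 0.714% were called higher and 0.0921% lower in that step.

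Of 16 other known Zap1 targets, 12 had a value and 11 were tested, and 3 were called higher and 0 lower late against early (median 0.54, against 0.45 over all genes, of which 13.8% were called higher and 3.41% lower). URA10, a minor orotate phosphoribosyltransferase gene, was 5.03-fold higher (log2 2.33, SE 0.22, limma adjusted p = 2.16e-09), PST1, a cell wall protein gene, 3.04-fold and DPP1, a vacuolar lipid phosphatase gene, 2.17-fold. With libraries centred URA10 and PST1 remained called, where 200 of all 4343 genes were called higher and 190 lower. DPP1 holds a Zap1 motif match within 1 mismatch, and URA10 and PST1 hold none. CACGTG occurred upstream of 3 of the 16, URA10 and PST1 among them but not DPP1, against 9.0% of all protein-coding genes. EKI1, an ethanolamine kinase gene, had the largest difference not called, at 0.73. MCD4, an enzyme gene of GPI anchor synthesis picked for its exact match after its values were seen, differed by 0.54. Middle against early, URA10 (1.60) and PST1 (1.12) were already called, though PST1 was not with libraries centred (0.85). VEL1, YOR387C, RTC4 and YOL131W had no value in any library, and ZRG8 was listed in 17 of the 24.

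Among other zinc transport and IZH genes, 0 of 3 tested were called late against early, where 13.8% of all genes were called higher and 3.41% lower. At an unadjusted limma p under 0.05 it was 1 of 3, against 2853 higher and 338 lower of all 4343 genes. ZRG17, an ER zinc transporter gene with an exact motif match, differed by 0.60 (SE 0.13, limma adjusted p = 0.000168). With libraries centred it differed by 0.14 and did not pass limma's test (adjusted p = 0.325). Its partner MSC2 and the ER transporter YKE4 differed by 0.22 and 0.19, both of which turned negative with libraries centred (-0.25 and -0.27). Of 6 other alcohol dehydrogenase genes tested 1 was called higher late against early, where 13.8% of all genes were, namely ADH5 (2.09-fold, limma adjusted p = 4.11e-06), and ADH6, an NADPH-dependent form, had a log2 difference of -0.99, just short of the limit. With libraries centred ADH6 was called lower (-1.45), as were 190 of all 4343 genes, and ADH5 was not called. ADH5 was called middle against early as well (1.18), but not with libraries centred (0.91). Of 9 genes of other zinc enzymes 2 were called higher (13.8% of all genes), PHO8 (3.79-fold), a vacuolar alkaline phosphatase gene and itself a phosphate-regulated one, and NCE103 (2.42-fold), carbonic anhydrase. PHO8 was called middle against early too (1.37), and NCE103 late against middle (1.25). With libraries centred PHO8 alone of the 9 was called late against early, where 200 of all 4343 genes were called higher. CACGTG occurred upstream of 4 of the 9, PHO8 and NCE103 among them, against 9.0% of all protein-coding genes. It occurred upstream of 2 of 7 other alcohol dehydrogenase genes, ADH5 and ADH6 not among them. Whether Pho4 acts on any of these genes was not tested. APE2, an aminopeptidase gene, had the largest difference not called, at 0.90.

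**Figure D4:**
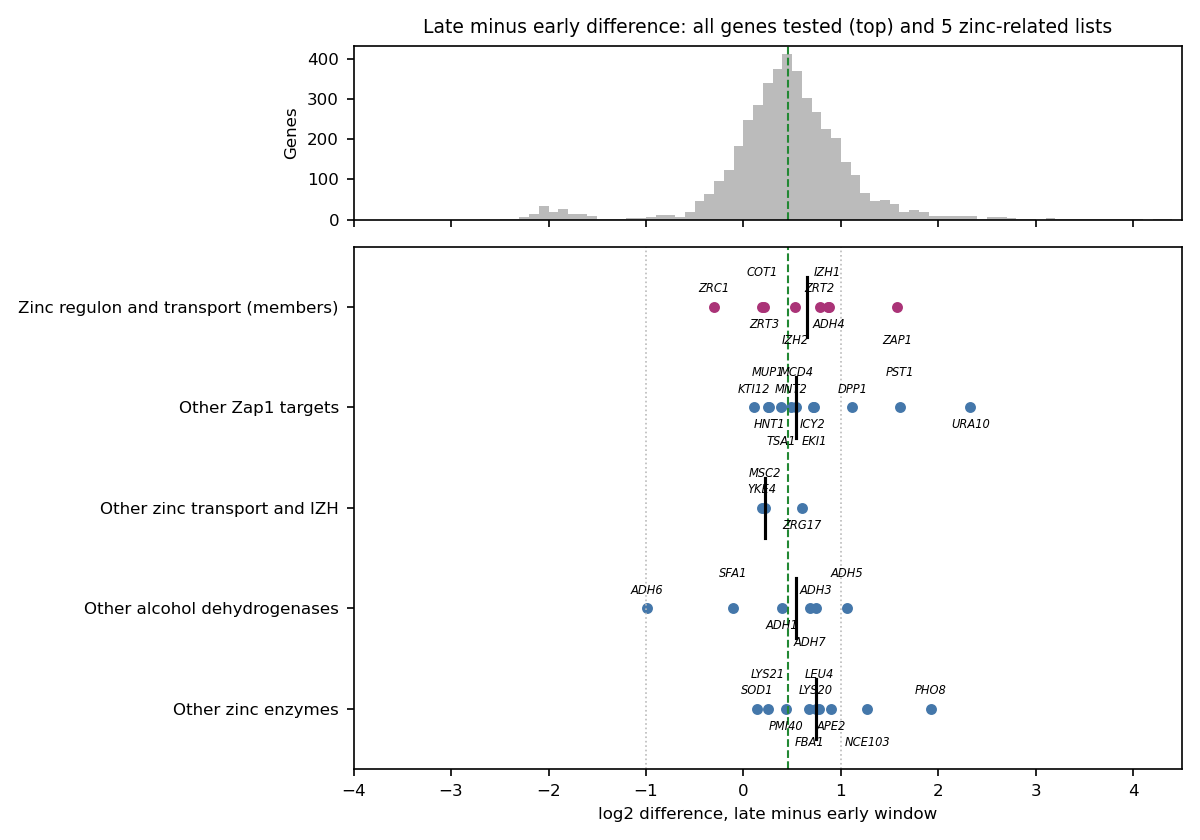
Late minus early difference (log2) for all 4343 genes tested (histogram, top) and for the tested genes of 5 zinc-related lists (points, bottom), with list medians as black bars, the median of all genes dashed at 0.45 and the size limit dotted. The list medians run from 0.22 to 0.74, and ZAP1 is the only one of the 8 zinc regulon and transport genes past 1.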

How the data were processed

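Per the labels, RNA of 25 yeast libraries from 1 course was sequenced; the submitters' processing notes name Bowtie and genome build R64. The counter, annotation and use of strand were not stated there. The deposited values are log2 RPM as the authors made them: 2 raised to them sums to 1000000 per library. The series' design text speaks of values relative to 0 min, which these are not. With the lowest value of each library taken as 15 reads, values came out as whole reads for 93.6% to 94.4% of genes (tolerance 0.02 reads). Library depths, read numbers and Poisson limits rest on this inference, under which entries below 15 reads are missing. The 51 unnamed entries hold no value.

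The 4343 genes listed in 20 or more of the 24 libraries without phosphate were fitted with limma 3.58.1 in R 4.3.3 (window means, or a natural spline over time, df 3; trend and robust estimation), two-sided, adjusted by Benjamini-Hochberg over all of them. The code was tested on simulated data. Pair ratios used exact permutation tests, adjusted over 15. Poisson and fit intervals are 95%, the Poisson ones for counting error only. Sites and loci are from RefSeq R64. The members and lists were chosen with earlier results of these data known. Named genes were all 10, every called gene of the other lists and each list's largest uncalled difference, and the 3 most correlated genes of ZAP1, ZRT1, ADH4 and ZPS1 (not computed for ZRT1 and ZPS1, with under 20 values). MCD4, MNT2, MSC2, YKE4 and genes without a test fall outside this rule and were named after their values were seen. Alternatives covered scaling, missing values, pseudocount, spread, test, windows and left-out libraries.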

Additional observations from a re-analysis of the deposited data

Results flagged for a closer look

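Of 43 groups of 4 to 8 values examined for a library far from the rest of its window, 2 stood out, where chance gives about 1 in 20. The ZAP1 level at 45 min was 3.77 (log2 RPM, 17 reads), the lowest of the 7 early values, with the next at 4.44. Without that library ZAP1 differed by 0.94 middle against early and was not called. The log2 ratio of ZRT3 to ZRC1 at 15 min was -0.70, the highest of the 8 early ratios, with the next at -1.08. The 15 min library was the shallowest, with 450744 reads.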

How the results depend on the processing

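No paired analysis was possible because the replicate numbers only name successive time points of 1 course. Late against early, 1 of the tested zinc genes (ZAP1) was called under every scaling, spread, pseudocount, window and left-out library tried (1 to 1 without single libraries). The count was 0 with a value required in all 24 libraries, where ZAP1 is not tested. It was 3 with no filter, where the listed values of ZRT1 (1.23) and ZPS1 (1.10) were called too, as were 764 of 4904 genes. Listed values can be no lower than the floor, whose median was 11.0 RPM early and 24.5 RPM late, so these 2 differences partly reflect it. ZPS1 had 2 early and 2 late values, and its pooled bounds allow 0.62 to 6.55 times late over early. Middle against early, the count was 0 with libraries centred, scaled outside ribosomal protein genes, with a value in all 24, with missing values at the floor and with 10 RPM added, and 0 to 1 without single libraries. The course over time was called for 2 genes with libraries centred, scaled outside ribosomal protein genes or with a value in all 24. Over all genes it was called for 836 and 895 of 4343 and for 921 of 3275, in that order. The called pair ratios numbered 0 to 5 without single libraries.

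Signs turned as follows, first centred and then scaled outside ribosomal protein genes. ZRT3 was -0.25 and -0.25 late against early, -0.13 and -0.19 middle against early and -0.12 and -0.057 late against middle. COT1 was -0.27 and -0.27 late against early and -0.072 and -0.14 middle against early. ZRT2 was -0.13 and -0.20 middle against early. Scaled outside ribosomal protein genes, IZH1 was -0.056 middle against early. Centred, ADH4 was -0.026 and IZH2 -0.018 late against middle. COT1 late against middle was -0.0033 on the deposited scale, -0.19 centred and -0.13 scaled outside ribosomal protein genes, and 0.00045 with 10 RPM added, 0.077 with 6 libraries a window, 0.093 without the 15, 345 and 360 min libraries and -0.072 to 0.069 without single ones. ZRT1 to ZRT2 late against middle was -0.020 with 10 RPM added, -0.024 with 6 libraries a window and -0.024 to 0.23 without single libraries, and ZRC1 to COT1 -0.13 to 0.037. The cause of these changes was not tested, beyond the scaling's own shift of the median gene. Depth limits ZRT1, ZPS1, ADH4 and ZAP1 most, and a missing value means fewer than 15 reads, not absence.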
